A study of Mus musculus with 10 samples.

Results

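The genes described here are 7 potassium channel genes of the mouse spinal cord, namely Kcnc1, Kcnc2, Kcnc4, Kcng4, Kcnab1, Kcnab2 and Kcnab3. They were taken by symbol from the 26301 genes of the count files, and all 7 were found and passed the filter on low counts. The cords were from C57BL/6 mice, an inbred laboratory strain, with no treatment or altered allele named. At 8 weeks of age each sex had 3 libraries and at 4 weeks each sex had 2, which makes 10. Whether replicate libraries stem from different animals is not stated, so the p-values reflect library-to-library spread that may be technical.

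Voltage-gated potassium (Kv) channels open when a neuron depolarises and end the action potential. Kv3 channels open only at strongly depolarised voltages and close very fast, which lets neurons fire at high rates. Kcnc1, Kcnc2 and Kcnc4 encode the pore-forming alpha subunits Kv3.1, Kv3.2 and Kv3.4, and the last of these inactivates quickly. Kcng4 encodes Kv6.4, an alpha subunit of another family that makes no channel alone and modifies Kv2 channels, so it is neither a Kv3 nor a beta subunit. Kcnab1, Kcnab2 and Kcnab3 encode the Kv beta subunits, cytoplasmic proteins that bind mainly Kv1 channels, which lie beside the nodes of myelinated axons.

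The 4 alpha subunits share the signature of the potassium selectivity filter, and its codons are shown to let the related genes be compared. Each line is 60 coding bases of the GENCODE M21 transcript in build GRCm38, with the 18 bases of the signature in capitals.
Kcnc1: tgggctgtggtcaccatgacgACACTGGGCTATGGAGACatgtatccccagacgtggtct
Kcnc2: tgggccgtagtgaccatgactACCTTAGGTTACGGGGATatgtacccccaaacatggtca
Kcnc4: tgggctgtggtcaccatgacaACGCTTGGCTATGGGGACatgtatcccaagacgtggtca
Kcng4: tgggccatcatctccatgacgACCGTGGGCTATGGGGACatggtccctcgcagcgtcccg
The windows lie in coding exons, at chr7:46427952-46428011 on the plus strand for Kcnc1 (exon 2), at chr10:112456208-112456267 on the plus strand for Kcnc2 (exon 3), at chr3:107447775-107447834 on the minus strand for Kcnc4 (exon 2) and at chr8:119625886-119625945 on the minus strand for Kcng4 (exon 3). Kcnc1 and Kcnc4 differed at 6 of the 60 bases and Kcnc1 and Kcnc2 at 15, while Kcng4 differed from Kcnc1 at 21.

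The beta subunits have no pore, and the last 60 coding bases of each are shown because the longest run shared by Kcnab1 and Kcnab2 lies there, in capitals.
Kcnab1: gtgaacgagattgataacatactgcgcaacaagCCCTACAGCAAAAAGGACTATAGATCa
Kcnab2: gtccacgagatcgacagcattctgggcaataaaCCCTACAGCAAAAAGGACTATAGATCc
Kcnab3: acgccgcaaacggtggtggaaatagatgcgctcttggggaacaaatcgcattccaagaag
These bases lie at chr3:65376506-65376565 on the plus strand for Kcnab1 (exon 14), at chr4:152393038-152393097 on the minus strand for Kcnab2 (exon 17) and at chr11:69332081-69332140 on the plus strand for Kcnab3 (exon 14). Over the whole protein-coding transcripts, the longest identical run between any pair of the 7 genes was 29 bases, found for Kcnc1 with Kcnc2 and for Kcnc1 with Kcnc4, and 26 bases for Kcnab1 with Kcnab2. Exons of Kcnab1 and Kcnab3 overlap an antisense gene in that annotation, A330015K06Rik and Kcnab3os. No source used here gives the strand setting of the counting, so reads of each pair cannot be told apart.

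A library held 8453559 to 11594610 counts. The lowest count of any of the 7 genes in a library was 584, for Kcnc2, so counting error is part of the spread between replicates given below. CPM here means the count of a gene relative to its library's total, after TMM scaling for differences in library composition. Differences are given as log2 fold changes, each with a standard error (SE), and a gene was called at a Benjamini-Hochberg adjusted p under 0.05 in edgeR's quasi-likelihood test over 15540 genes. The cord label was checked against markers: 12 neuronal genes summed to 9762 to 9995 CPM at 8 weeks and 8572 to 9496 CPM at 4 weeks. The 12 oligodendrocyte and myelin genes summed to 38972 to 46581 CPM at 8 weeks and 62293 to 66224 CPM at 4 weeks. Transcripts of other tissues were present in some libraries. Muscle markers summed to 40.7 to 154 CPM at 8 weeks and 501 to 2030 CPM at 4 weeks. Lung markers summed to 886 and 102 CPM in male 8-week libraries 2 and 3 and to at most 9.69 CPM elsewhere, and 5 of the 10 lung genes, with the surfactant genes Sftpa1 and Sftpd among them, had 0 counts in all female 8-week libraries.

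At 8 weeks only Kcnab1 of the 7 genes was called different from 4 weeks, and it was higher, by 0.22 on the log2 scale (SE 0.05), or 16.4%. The other 6 genes also had positive log2 fold changes, between 0.07 for Kcnc4 and 0.20 for Kcnab3, and did not pass. Both sexes entered this comparison of the ages. Of all tested genes 6.62% were called in either direction (1.61% higher and 5.01% lower), so 1 called gene among 7 was not read as a result about the 7 as a group. The median log2 fold change of the 7 genes was 0.18, that of all tested genes was 0.01, and 51.6% of all tested genes had a positive value. An unadjusted p under 0.05 was found for 6 of the 7 genes and for 21% of all tested genes.

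**Figure D1:**
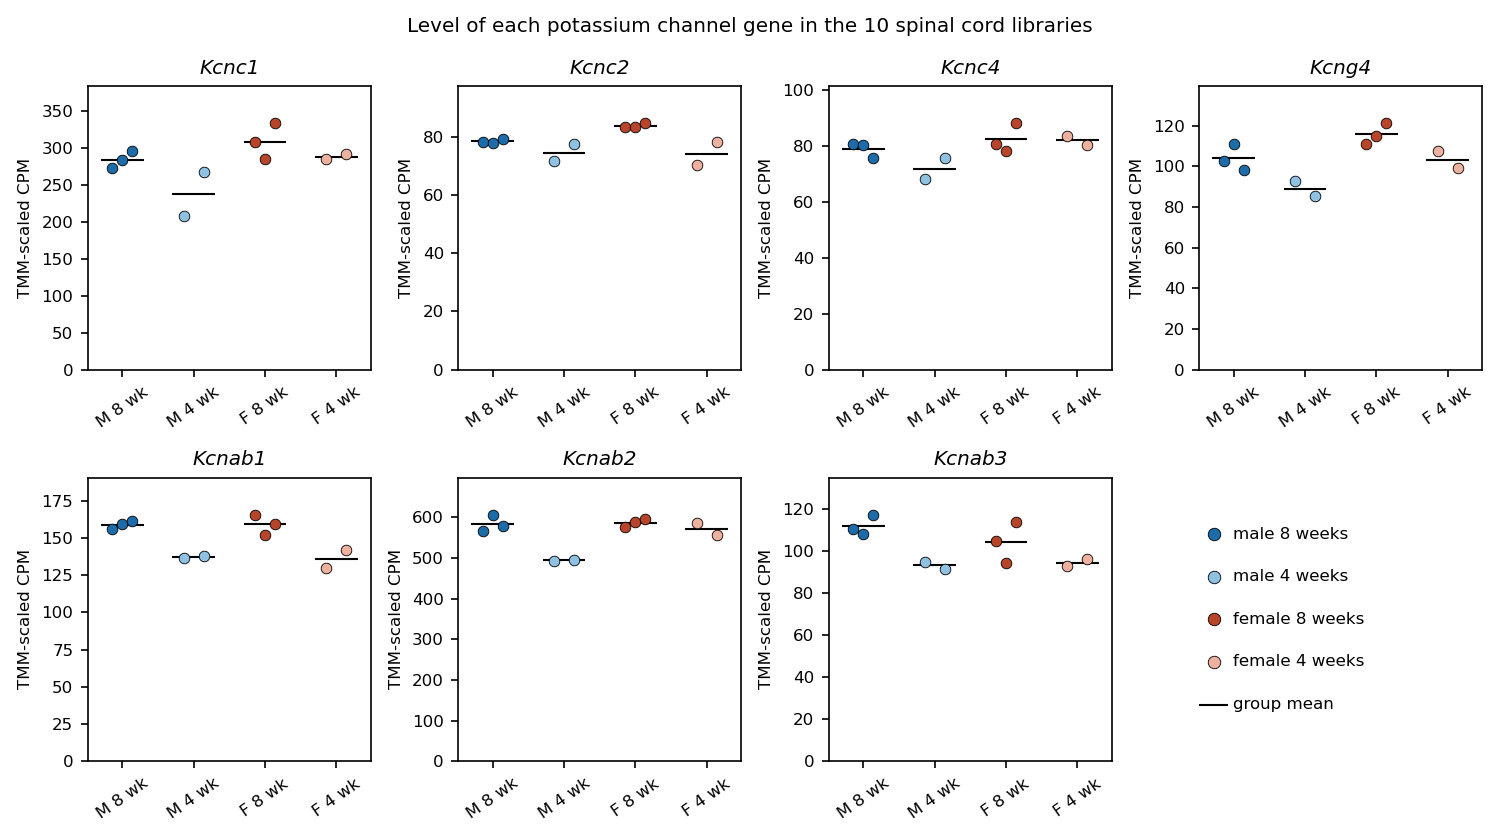
TMM-scaled CPM (vertical axes, from 0) of each of the 7 genes in every library, by sex (M, male; F, female) and age; points are libraries and lines group means. Kcnab1 is the gene of the 7 in which all 6 of the 8-week libraries, at 152 to 166 CPM, lie above all 4 of the 4-week libraries, at 130 to 142 CPM. The share of all tested genes with ages apart in this way was not counted.

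Per kilobase of exon the beta subunits were the most abundant of the 7 transcripts. Kcnab2 stood first in every library, at 142 ± 3.55 CPM per kb at 8 weeks (SD, n = 6) and 129 ± 11.1 CPM per kb at 4 weeks (SD, n = 4). Kcnab1 was second and Kcnab3 the third in every library, with levels of 40.0 to 51.1 and 36.1 to 46.2 CPM per kb over the 10 libraries. These ranges overlapped, although Kcnab1 was above Kcnab3 within each library. Kcnc1 (22.2 to 35.5 CPM per kb) and Kcng4 (22.4 to 31.9 CPM per kb) changed places between libraries. Kcnc4 came next at 18.6 to 24.1 CPM per kb, and Kcnc2 was lowest in every library at 11.1 to 13.4 CPM per kb. The lengths are unions of annotated exons, so a gene with long alternative ends, such as Kcnc1, may stand too low in this order.

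Kcnab1 (Entrez Gene 16497), whose product carries an amino-terminal segment that inactivates Kv1 channels, lay at 156, 159 and 161 CPM in male 8-week libraries, against 137 and 138 CPM in male 4-week libraries. In females it lay at 166, 152 and 160 CPM at 8 weeks, against 130 and 142 CPM at 4 weeks. The ages did not overlap in either sex. For this gene and those below, how many of all tested genes have ages or sexes apart in this way was not counted. With so few libraries per group, such gaps are therefore given as description only. The mean was 159 ± 4.63 CPM at 8 weeks (SD, n = 6) and 137 ± 5.18 CPM at 4 weeks (SD, n = 4), and the gene rose by 0.22 (SE 0.05, edgeR adjusted p = 0.0144). The call held when any 1 library was left out, at edgeR adjusted p values between 0.0187 and 0.0456. It ended when the pair with lung transcripts (male 8-week libraries 2 and 3) was left out, at 0.21 (SE 0.06, edgeR adjusted p = 0.104). It also ended without both male 4-week libraries, at 0.23 (SE 0.07, edgeR adjusted p = 0.113).

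Kcnab3 (Entrez Gene 16499), the remaining Kv beta subunit, lay at 110, 108 and 117 CPM in male 8-week libraries, against 94.6 and 91.6 CPM in male 4-week libraries. In females it lay at 105, 94.2 and 113 CPM at 8 weeks, against 92.8 and 96.0 CPM at 4 weeks. Of the 6 libraries at 8 weeks 5 were above every 4-week library, and female 8-week library 2 lay within the 4-week range. Its log2 fold change was 0.20 (SE 0.06, edgeR adjusted p = 0.0612). It passed in 1 of the 10 fits that left out 1 library, the fit without female 8-week library 2, at 0.24 (edgeR adjusted p = 0.0228). The highest edgeR adjusted p of these fits was 0.139.

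Kcnab2 (Entrez Gene 16498), which carries Kv1 channels to the axon and does not inactivate them, lay at 567, 607 and 579 CPM in male 8-week libraries, against 492.5 and 496.5 CPM in male 4-week libraries. In females it lay at 575, 588 and 596 CPM at 8 weeks, against 586 and 558 CPM at 4 weeks. The ages were apart in males and overlapped in females. Over both sexes the log2 fold change was 0.14 (SE 0.05, edgeR adjusted p = 0.134), and without both male 4-week libraries it was 0.04 (SE 0.06, edgeR adjusted p = 0.826). Relative to one another the beta subunits shifted little: of the summed beta level per kb, Kcnab2 took 59.4% to 62.9% at 8 weeks and 60.02% to 64.93% at 4 weeks.

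Kcng4 (Entrez Gene 66733) lay at 102, 111 and 98.3 CPM in male 8-week libraries, against 93.1 and 85.2 CPM in male 4-week libraries. In females it lay at 111, 115 and 121 CPM at 8 weeks, against 108 and 99.0 CPM at 4 weeks. The ages were apart within each sex and overlapped when the sexes were pooled, since female 4-week library 1 lay above male 8-week libraries 1 and 3. Its log2 fold change was 0.19 (SE 0.06, edgeR adjusted p = 0.0591). It passed in 1 of the 10 fits that left out 1 library, the fit without female 4-week library 1, at 0.23 (edgeR adjusted p = 0.0488). The highest edgeR adjusted p of these fits was 0.132.

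Kcnc1 (Entrez Gene 16502) is a Kv3 gene of fast-firing interneurons. It lay at 273, 283 and 296 CPM in male 8-week libraries, against 208 and 267 CPM in male 4-week libraries. In females it lay at 307, 284 and 333 CPM at 8 weeks, against 284 and 292 CPM at 4 weeks. Male 4-week library 1 was lowest and the ages overlapped in females. The log2 fold change was 0.18 (SE 0.07, edgeR adjusted p = 0.171). Without male 4-week library 1 alone it was 0.10 (SE 0.06, edgeR adjusted p = 0.436), and without male 4-week library 2 alone it was 0.23 (SE 0.08, edgeR adjusted p = 0.074).

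Kcnc2 (Entrez Gene 268345) ranged from 77.9 to 84.7 CPM at 8 weeks and from 70.2 to 78.0 CPM at 4 weeks, with 5 of the 6 libraries at 8 weeks above every 4-week library. Its log2 fold change was 0.12 (SE 0.05, edgeR adjusted p = 0.203). Kcnc4 (Entrez Gene 99738) ranged from 75.8 to 88.3 CPM at 8 weeks and from 68.3 to 83.5 CPM at 4 weeks, so the ages overlapped widely. Its log2 fold change, 0.07 (SE 0.06, edgeR adjusted p = 0.539), was close to its SE, and without male 4-week library 1 it was 0.03 (SE 0.06, edgeR adjusted p = 0.846).

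The neuronal markers moved in the same direction as the 7 genes. The summed neuronal markers were higher in all 6 of the 8-week libraries than in any 4-week library, and all 12 had positive log2 fold changes, with a median of 0.13, although only Snap25, a vesicle fusion protein, was called. In whole-tissue RNA more neurons, or a larger neuronal part of the RNA, cannot be told apart from more transcript per neuron. When the summed counts of these 12 markers were taken as the scale in place of TMM, 0 of the 7 genes were called by edgeR, and 0 had an unadjusted p under 0.05. On that scale the log2 fold change of Kcnab1 was 0.10 (SE 0.06, edgeR adjusted p = 0.282), that of Kcnc2 was 0.00 (SE 0.07) and that of Kcnc4 turned to −0.05 (SE 0.06), while the median of all tested genes moved to −0.12. Myelin and muscle markers moved the other way, with 10 of 12 myelin genes and 12 of 12 muscle genes called lower at 8 weeks. So did 10 of 10 neutrophil and marrow genes, which summed to 128 to 219 CPM at 8 weeks and 225 to 619 CPM at 4 weeks, and 5 of 8 erythroid genes, which summed to 355 to 417 CPM at 8 weeks and 472 to 851 CPM at 4 weeks. Of 10 adrenal genes tested 7 were called lower at 8 weeks, although the summed list overlapped, at 581 to 630 CPM at 8 weeks and 560 to 713 CPM at 4 weeks. In both male 4-week libraries 0 of the 12 listed adrenal genes were at 0 counts, against 3 to 5 in every other library. The muscle, marrow and erythroid sums were highest in male 4-week library 1. With a skeletal muscle score as a covariate 0 of the 7 genes were called by edgeR. Kcnab1 then stood at 0.16 (SE 0.12, edgeR adjusted p = 0.542), and Kcnc1 and Kcnc4 turned to −0.29 (SE 0.12) and −0.13 (SE 0.14). Muscle score and age were closely tied over the 10 libraries (Pearson r = −0.911), and adding the score raised the median SE 2.28-fold. The part of the myelin, marrow, erythroid and adrenal transcripts in the differences of the 7 genes was not tested.

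**Figure D2:**
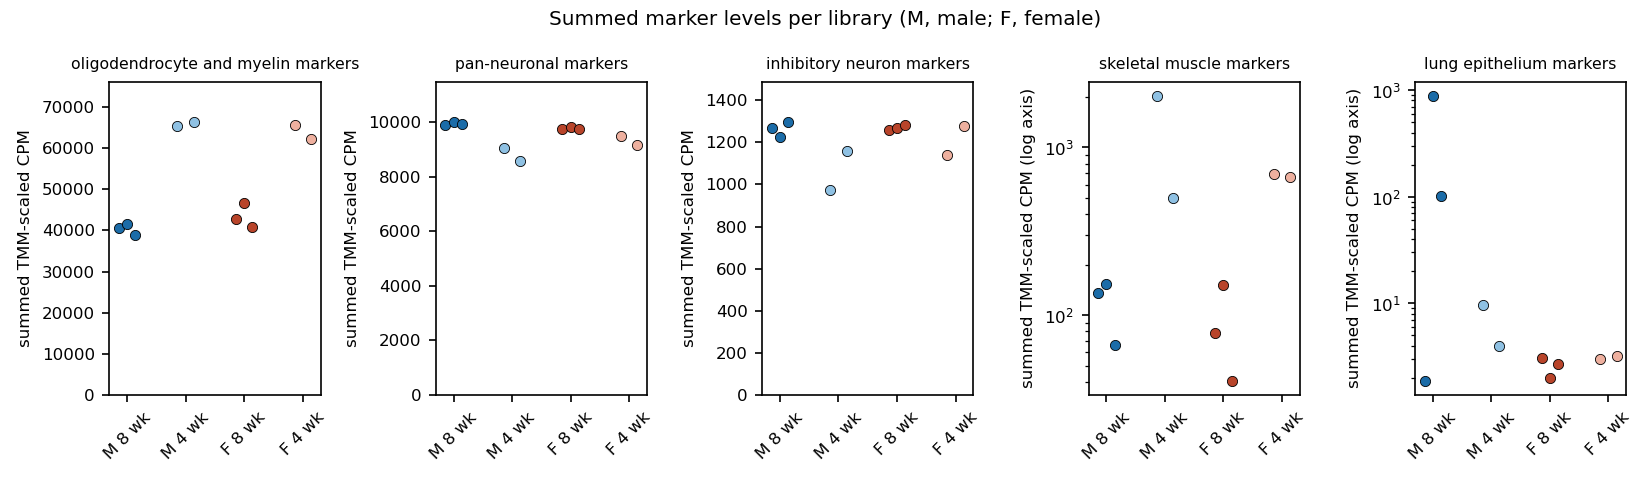
Summed TMM-scaled CPM of 5 marker lists in each library (points), by sex (M, male; F, female) and age; the vertical axes start at 0 except for muscle and lung, which have log axes. Neuronal markers lie between 9762 and 9995 CPM at 8 weeks and between 8572 and 9496 CPM at 4 weeks, and male 8-week library 2 stands at 886 CPM of lung markers.

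Within males Kcnab2 was the 1 gene of the 7 called between the ages, and it was higher at 8 weeks by 0.24 (SE 0.06, edgeR adjusted p = 0.0464). Of all tested genes 3.22% were called in males in either direction, 0.837% higher and 2.39% lower. The call of Kcnab2 ended in 8 of the 10 fits that left out 1 library, at edgeR adjusted p values up to 0.164, which were those without any male library or any female 8-week library. Kcnc1 in males had a log2 fold change of 0.25 (SE 0.10, edgeR adjusted p = 0.212), which became 0.45 without male 4-week library 2 (edgeR adjusted p = 0.0171) and 0.10 without male 4-week library 1. In females 0 of the 7 genes were called by edgeR, and DESeq2 and limma-voom called 0 as well, against 1.45% of all tested genes in edgeR (0.238% higher and 1.22% lower). There Kcnc2 and Kcnab1 had an unadjusted p under 0.05, as did 12.1% of all tested genes. Kcnab1 stood at 0.23 (SE 0.07, edgeR adjusted p = 0.169) and Kcnab2 at 0.04 (SE 0.06, edgeR adjusted p = 0.854).

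**Figure D3:**
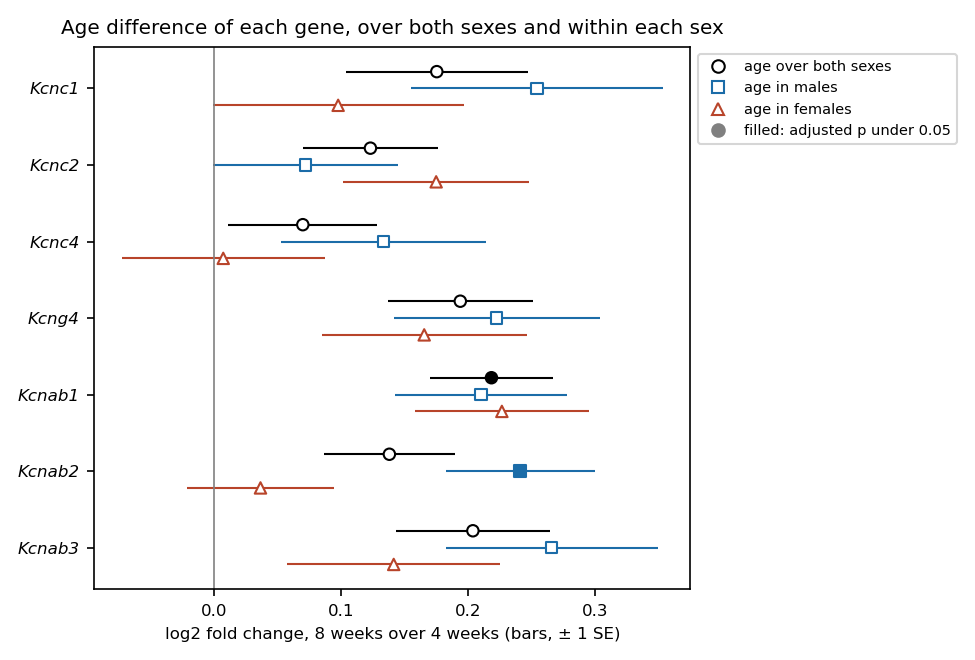
Log2 fold change of 8 weeks over 4 weeks (horizontal axis; bars, ± 1 SE) for each gene over both sexes, in males and in females; filled symbols have an adjusted p under 0.05. The values of Kcnab1 lie close together, at 0.22, 0.21 and 0.23, and those of Kcnab2 are farthest apart, at 0.24 in males and 0.04 in females.

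Whether the age difference itself differed between the sexes was tested as an interaction, females minus males. In edgeR 0 of the 7 genes were called, DESeq2 and limma-voom called 0 as well, and 0.0129% of all tested genes were called in edgeR. Kcnab2 had the largest interaction of the 7, −0.20 (SE 0.08), with an unadjusted p of 0.0288 and an edgeR adjusted p of 0.97, while 4.82% of all tested genes had an unadjusted p under 0.05. At 8 weeks its means were 586 CPM in females and 584 CPM in males, and at 4 weeks they were 572 CPM in females and 495 CPM in males.

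Between the sexes, over both ages, 0 of the 7 genes were called in edgeR, in DESeq2 or in limma-voom, and 0.0901% of all tested genes were called in edgeR (0.0257% higher and 0.0644% lower in females). Kcng4 and Kcnc1 had an unadjusted p under 0.05, as did 7.36% of all tested genes. Kcng4 averaged 111 ± 8.37 CPM in females and 98.0 ± 9.76 CPM in males (SD, n = 5 each), a log2 fold change of 0.18 (SE 0.06, edgeR adjusted p = 0.486). Within each age every female library lay above every male library for Kcng4 except female 8-week library 1, which at 111 CPM was just under male 8-week library 2. Kcnc1 averaged 300.3 ± 20.8 CPM in females and 265 ± 33.6 CPM in males (SD, n = 5 each), a log2 fold change of 0.18 (SE 0.07, edgeR adjusted p = 0.618). For Kcnab1 the difference was 0.00 (SE 0.05).

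Genes of the channels that work with these subunits, or beside them, were compared between 8 and 4 weeks by lists, described by counts and medians. Of 6 other Kv3 genes and small Kv3 partners 3 were tested and 0 were called. Their median was −0.09, with 1 of the 3 above 0. Of 6 Kv1 alpha subunits tested, the partners of the beta subunits, 0 were called and the median was 0.10, with the lowest p for Kcna6 at 0.14 (SE 0.05, edgeR adjusted p = 0.12). Of 3 Kv2 genes, the partners of Kv6.4, 0 were called and the median was 0.18, with Amigo1, a membrane partner of Kv2.1, at 0.18 (SE 0.06, edgeR adjusted p = 0.12). The 7 other modulatory subunits tested had 0 calls and a median of 0.25, and Kcng1, at 3.37 ± 0.49 CPM at 8 weeks (SD, n = 6) and 2.20 ± 0.63 CPM at 4 weeks (SD, n = 4), had the lowest p (edgeR adjusted p = 0.116). The 9 genes of Kv4 channels and their auxiliary subunits had 0 calls and a median of 0.14, with Kcnd1, which encodes Kv4.1, at 0.43 (SE 0.13, edgeR adjusted p = 0.0617). The 4 genes of Kv7 channels, which carry the slow M current, had 0 calls and a median of 0.13.

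In a list of 12 genes drawn up around the anchoring of Kv1 channels beside the node, 1 rose, 0 fell and 11 did not pass, with a median of 0.12. Whether each of the 12 has that role in the cord was not tested. Cntn2, an adhesion protein of the axon beside the node, averaged 428.7 ± 35.05 CPM at 8 weeks (SD, n = 6) and 356 ± 44.6 CPM at 4 weeks (SD, n = 4), and rose by 0.27 (SE 0.06, edgeR adjusted p = 0.0199). Among 12 genes of fast-firing neurons, 1 rose, 1 fell and 10 did not pass, with a median of 0.15. Scn4b, a sodium channel beta subunit that speeds recovery for repeated firing, averaged 558 ± 31.9 CPM at 8 weeks (SD, n = 6) and 486 ± 42.1 CPM at 4 weeks (SD, n = 4), and rose by 0.20 (SE 0.06, edgeR adjusted p = 0.0435). Pvalb, which encodes the calcium-binding parvalbumin found in many rapidly firing neurons and also in fast-twitch muscle, fell by 0.73 (SE 0.20, edgeR adjusted p = 0.041), to 116 ± 16.9 CPM at 8 weeks (SD, n = 6), against 196 ± 96.4 CPM at 4 weeks (SD, n = 4), where the muscle markers were also higher. Over both sexes the medians of the inhibitory and motor neuron markers were 0.17 and 0.14, near the 0.18 of the 7 genes. In females alone the 7 genes had a median of 0.14, and the neuronal, inhibitory and motor neuron markers 0.04, 0.07 and 0.22. In males alone these medians were 0.22, 0.16, 0.23 and 0.23, in the same order.

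**Figure D4:**
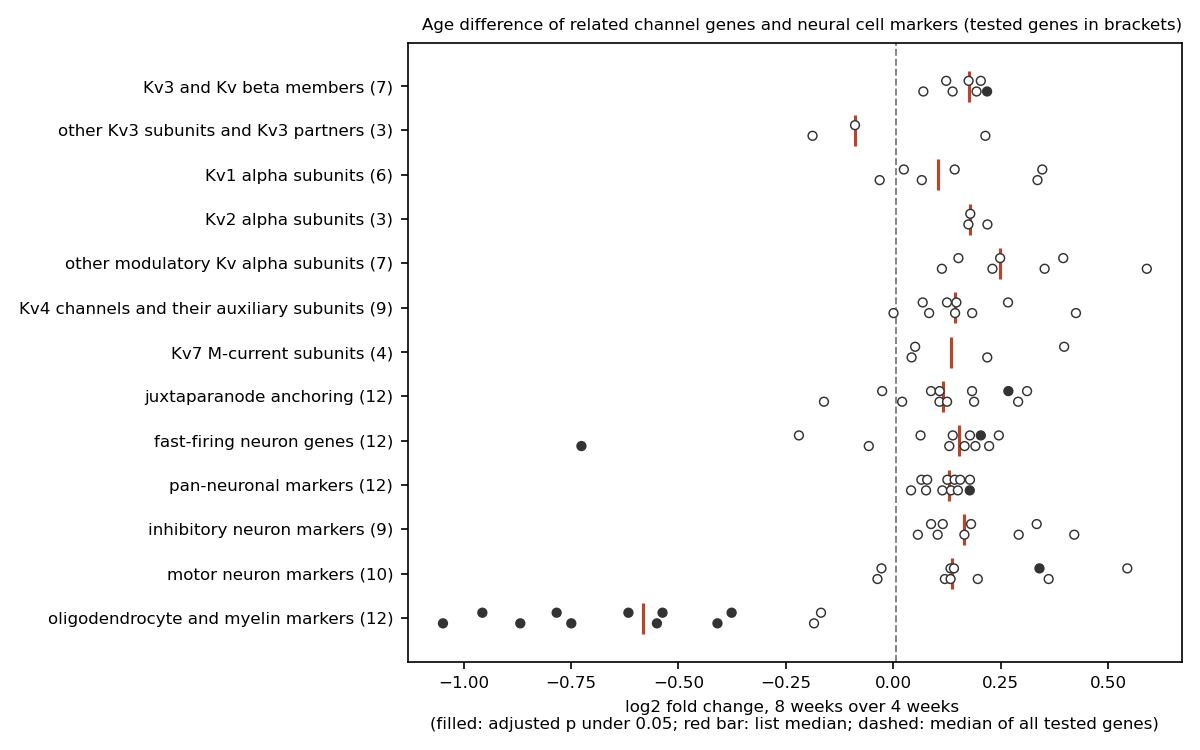
Log2 fold change of 8 weeks over 4 weeks (horizontal axis) for every tested gene (points) of the 7 genes described and of 12 lists of related channel genes and neural markers; filled points have an adjusted p under 0.05, red bars are list medians and the dashed line is the median of all tested genes. Over both sexes the medians of the neuronal marker lists, 0.13 to 0.17, lie close to the 0.18 of the 7 genes. The median of the myelin list is at −0.58.

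The genes whose levels over the 10 libraries were most like those of each of the 7 were taken from 14250 candidates by Pearson correlation of log2 CPM, which here also holds the differences between the age and sex groups that the libraries share. For Kcnab1 these were Eif5a2, Nrip3 and Elavl2 (0.964 to 0.966). For Kcnab2 they were Nomo1, Phyhip and Plxdc1 (0.967 to 0.971) and for Kcnab3 Dbn1, Slc9a5 and Slc5a6 (0.917 to 0.925). For Kcng4 they included Ube2ql1 (0.913) and Tspyl5 (0.901). For Kcnc1 they were Sgsm1, Syt7 and Adar (0.970 to 0.976), for Kcnc2 Myo5b, Zeb1 and Marf1 (0.970 to 0.977) and for Kcnc4 Zcchc4, Txndc11 and Mms19 (0.920 to 0.959). Among the 7 genes themselves the highest correlations were 0.87 for Kcnc1 with Kcnc4, 0.858 for Kcng4 with Kcnab2 and 0.821 for Kcnab1 with Kcnab3, and the lowest was 0.313 for Kcnc4 with Kcnab1.

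**Figure D5:**
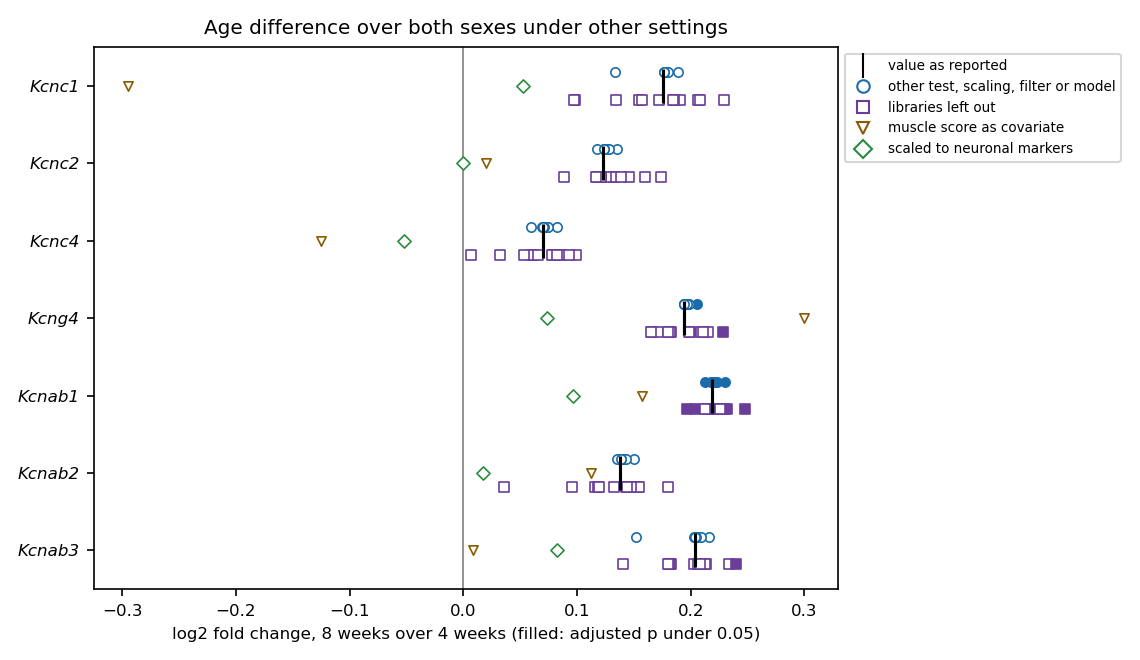
Log2 fold change of 8 weeks over 4 weeks over both sexes (horizontal axis) for each gene as reported (black bar) and under other tests, scalings, filters and models, with libraries left out, with the muscle score as a covariate and with neuronal markers as the scale; filled symbols have an adjusted p under 0.05. For Kcnab1 the values lie between 0.10 and 0.25, and Kcnc1 and Kcnc4 are the genes with values below 0.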

How the data were processed

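RNA of whole spinal cord was sequenced in 10 libraries, and the authors deposited raw read counts per Entrez Gene identifier, 1 file per library, with no normalization. TopHat2 2.1.0, featureCounts and build mm9 are named, per the submitters' processing notes. No source used here gives the counting options or the annotation. Symbols came from a RefSeq table of assembly GRCm38.p6, which named 24191 of 26301 identifiers. Sequences, exon lengths and exon overlaps came from GENCODE M21 (GRCm38), not mm9.

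Counts were scaled by TMM, filtered with filterByExpr (minimum count 10, minimum total 15) and tested two-sided with edgeR 4.0.16 (R 4.3.3, glmQLFTest), with p-values adjusted by Benjamini-Hochberg over 15540 genes. An additive model of sex and age in all libraries (7 residual degrees of freedom) gave the age comparison across sexes and the sex comparison across ages. Age within a sex and the interaction came from a 4-group model (6 residual degrees of freedom). The SE was derived from the fold change and its F statistic. The models were tested on simulated data. The changes put in were larger than those of the 7 genes, so differences of their size were not covered. Chi-square per degree of freedom between replicates was 1.95 to 11.6, above sampling noise in every pair. Alternatives used DESeq2 1.42.0, limma 3.58.1, other size factors and filters, a replicate block, left-out libraries and a muscle score; the scaling to neuronal markers was chosen after the data were seen. The genes, the 22 lists and the alternatives were chosen with earlier results of these data known. Named besides the 7 genes were, per channel list, called genes (at most 4) or else the gene of lowest p, and the 3 genes most correlated with each. Some genes that this rule names are not reported here. Of 207 listed genes 2 were not matched to the files, and an older symbol was used for 1.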

Additional observations from a re-analysis of the deposited data

How the results depend on the processing

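Of 637 values of the 7 genes under alternatives, over all comparisons, 600 kept their direction and their side of the threshold. Of the rest, 13 lost a call, 6 gained one and 18 changed sign. Most values belong to genes not called as reported, for which staying uncalled counts as kept. The lost calls were those of Kcnab1 over both sexes, in 4 of 22 alternatives, and of Kcnab2 in males, in 9 of 17. Of the 7 genes, DESeq2 called 3 between the ages (adding Kcng4 at adjusted p = 0.0378 and Kcnab3 at adjusted p = 0.042), and scaling by library totals called 2 (adding Kcng4 at edgeR adjusted p = 0.0493). Leaving out each library in turn gave 1 to 2 called genes of the 7, with 143 to 550 of all tested genes called higher. Without male 8-week libraries 2 and 3, 0 of the 7 and 474 of all genes were called by edgeR (74 higher, 400 lower). Without both male 4-week libraries 0 of the 7 and 393 of all genes were called (71 higher, 322 lower). With the muscle score 0 of the 7 and 49 of all genes were called (11 higher, 38 lower), and Kcnc1 and Kcnc4 changed sign, to −0.29 and −0.13. With neuronal markers as the scale 0 of the 7 and 2353 of all genes were called (65 higher, 2288 lower), the median of all genes moved to −0.12, and Kcnc4 changed sign, to −0.0517. The cause was not tested.

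Between the sexes, 35 genes were called by DESeq2, 60 without a filter on low counts and 38 with the replicate block, against 14 as reported, and 10 to 28 with 1 library left out. Kcnab1, near 0 as reported, was at 1e-04 in DESeq2, at 0.0075 without male 8-week libraries 2 and 3, and at −0.0229 to 0.0153 with 1 library left out. In males 0 to 1 of the 7 and 188 to 1199 of all genes were called with 1 library left out. In females 340 genes were called without a filter and 62 to 394 with 1 library left out, and Kcnc4 stood at −0.0443 to 0.044. For the interaction limma-voom called 1 gene and fits without 1 library called 1 to 2, Kcnc1 ranged from −0.35 to 0.0017, Kcng4 from −0.128 to 0.0049 and Kcnab1 from −0.0463 to 0.0864.

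Same-numbered libraries of different groups had deviations correlated at −0.228 to 0.259 over 13 pairs, of which 5 were over 0.1. In a group of 2 libraries the deviations from the group mean mirror each other, so these values cannot decide whether the numbers pair the samples. With the replicate block Kcnab1 was called at 0.21 (edgeR adjusted p = 0.0429), Kcnab2 in males was not called (0.24, edgeR adjusted p = 0.0715), which left 0 of the 7, and Kcnc4 in females stood at −0.0034.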
